A study of Homo sapiens with 6 samples.

Results

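The genes described here encode the machinery that ends, trims and degrades nuclear RNA: the RNA exosome, the Integrator complex, the adaptors and cap-binding proteins that bring RNA to them, and exonucleases that act on their own. They were chosen by name, as 40 genes, and a probe was kept where it was detected at p below 0.05 on 3 or more of 6 arrays. The array's annotation named 39 of the 40 through 55 probes, and 50 probes of 38 genes were kept, out of 10517 genes tested in all. No probe was annotated to MPHOSPH6, so it was not analysed here. Both probes of C1D were detected on 0 of 6 arrays. At the edge of the rule, a dim NCBP2 probe and a dim TGS1 probe were kept with 3 detected arrays each, whereas the second probe of EXOSC1, detected on 1 array, was not.

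Gene expression was measured with 6 Illumina bead arrays of total RNA from U251, an established human glioblastoma cell line grown in DMEM with 10% serum. On 3 arrays the cells carried a lentiviral pLKO1.5 vector with an shRNA against cyclophilin B (shCypB), and on 3 arrays the same kind of vector with a control sequence that has no target (shCON). All cells had been transduced for 5 days. The labels describe the samples of each group as biological replicates and both groups as stably expressing their shRNA, and name 1 targeting shRNA, so loss of the target and other effects of that shRNA cannot be told apart.

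As background, the exosome is a ring of RNase PH-like subunits under a cap of RNA-binding subunits, and its cutting is done by attached nucleases. It trims the 3′ ends of ribosomal, small nuclear and small nucleolar RNAs and destroys failed transcripts. Integrator rides on RNA polymerase II, cleaves nascent small nuclear RNAs and enhancer RNAs, and ends transcription early at many genes. The cap-binding complex and the adaptor complexes NEXT and TRAMP hand transcripts to the exosome, and PARN and TOE1 remove tails from the ends of small RNAs.

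The arrays detected 35.1% to 39.6% of 47231 probes each. Log2 signals correlated with r of 0.987 to 0.994 within groups and 0.957 to 0.965 between them. PPIB, the target, was detected on 0 shCypB arrays and on 3 shCON arrays. Its log2 signals were 4.58, 4.44 and 4.81 in shCypB cells and 6.05, 5.68 and 5.35 in shCON cells. The fall was at least 1.45-fold (limma, adjusted p = 0.00344), and the probe was tested only through the shCON arrays. Of the glial markers, GFAP, VIM, NES, FABP7 and CD44 were detected on every array and S100B on none, and GFAP, NES and FABP7 were lower in shCypB cells. VIM and CD44 did not pass and moved in opposite directions, by -0.225 and 0.216 on the log2 scale (limma, adjusted p = 0.123 and 0.125). Of the markers of other tissues, EPCAM, CDH1, PTPRC and CDH5 were detected on no array, PECAM1 on 2, KRT18 on 4, and CD68 and ALB on all 6. KRT18, an epithelial keratin gene, was lower in shCypB cells by a log2 change of -0.41 ± 0.10 (adjusted p = 0.0147; detected on 1 shCypB and 3 shCON arrays). Proliferation markers moved with the groups: 9 of 10 were lower in shCypB cells, and their mean log2 signal was 8.57 to 8.77 on shCypB arrays and 9.58 to 9.66 on shCON arrays. That of the 5 glial markers was 9.58 to 9.80 and 10.41 to 10.48. The part of either in the changes below was not tested, and in such bulk RNA fewer cells of a kind and less RNA per cell cannot be told apart.

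Of the 38 measured genes, 6 were higher in shCypB cells (INTS2, TGS1, XRN1, INTS12, RBM7 and INTS8), 6 were lower (TOE1, EXOSC3, EXOSC2, INTS10, NCBP1 and INTS6) and 26 did not pass the test. Passing means an adjusted p below 0.05 in a limma fit over all 17608 tested probes, with each gene read from its brightest tested probe. The 12 genes are 31.6% of those measured, against 43.8% of all tested genes, of which 23.1% were higher and 20.8% lower. Over the 17608 probes, 38.5% passed, 20.3% higher and 18.2% lower. A change of at least 1.5-fold was found in 6 of them, 15.8% against 24.5% of all genes. The values of the groups did not overlap for 19 of the 38, against 56.8% of all genes. The median size of change, without regard to sign, was 0.21 on the log2 scale over the 38 genes and 0.32 over all genes.

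**Figure D1:**
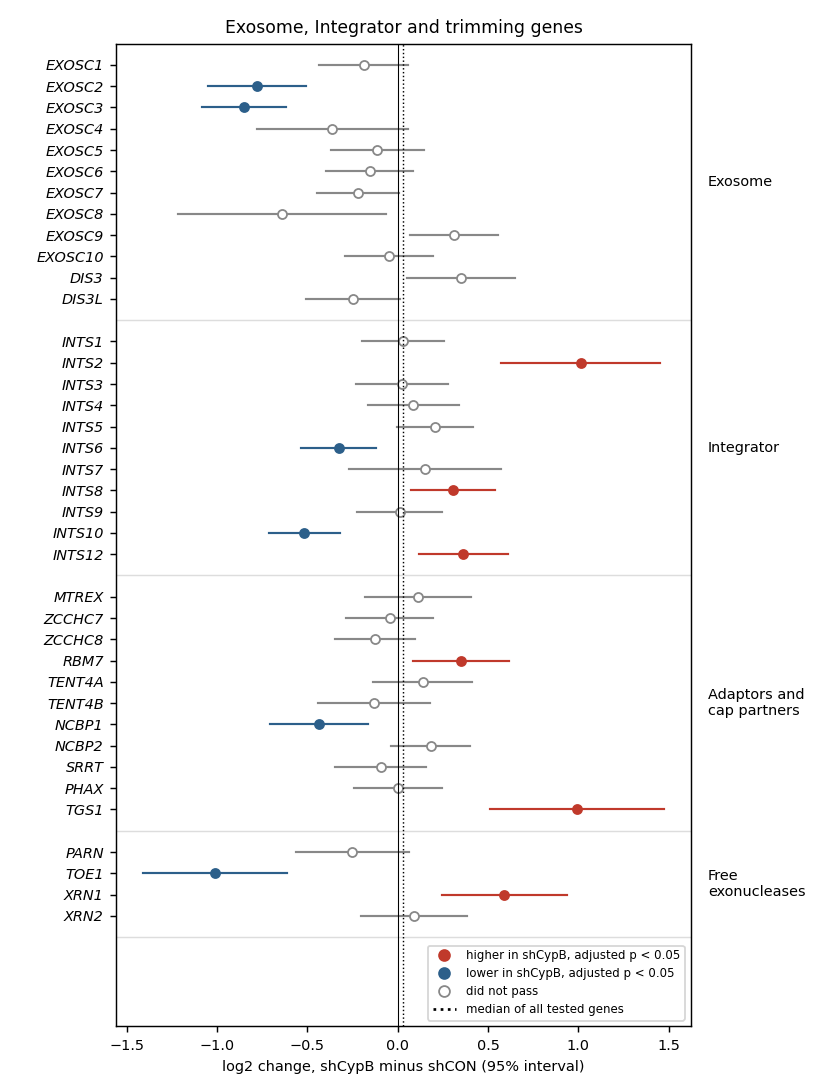
Log2 change of 38 genes in shCypB against shCON cells, 1 row per gene, with 95% intervals from the limma fit. Red and blue filled points passed the test upward and downward, open points did not, and the dotted line is the median of all tested genes (0.03). The largest changes, near 1 on the log2 scale in either direction, belong to TOE1, INTS2 and TGS1, and most exosome and adaptor genes lie within 0.4 of 0.

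The genes that did not pass were for the most part measured tightly. For 23 of the 26, the whole 95% interval of the change lay within 1.5-fold either way. EXOSC4, EXOSC8 and DIS3 were the exceptions, with intervals of -0.78 to 0.06, -1.22 to -0.06 and 0.05 to 0.65 on the log2 scale.

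Among exosome genes 2 fell, both of the RNA-binding cap, and 0 rose, with 10 of the 12 measured not passing. That is 16.7% called, against 43.8% of all tested genes (23.1% higher and 20.8% lower). The median log2 change of the exosome genes was -0.20, against 0.03 over all tested genes. Of the 12 changes 10 were negative, and of those of all 10517 tested genes 4996 were. EXOSC3 encodes a cap subunit that binds RNA at the entrance of the channel. Its log2 signal was 9.91, 9.71 and 9.91 on the shCypB arrays and 10.65, 10.73 and 10.71 on the shCON arrays. Every shCypB value lay well below every shCON value, a fall of 0.85 ± 0.10 on the log2 scale (SE; 1.81-fold lower, adjusted p = 0.000628). The other EXOSC3 probe gave a fall of 0.97 ± 0.12 (adjusted p = 0.000781).

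EXOSC2, the cap subunit beside it, had log2 signals of 6.99, 7.13 and 7.07 in shCypB cells and 7.84, 7.67 and 8.02 in shCON cells. The groups did not overlap, and it fell by 0.78 ± 0.12 (1.71-fold lower, adjusted p = 0.00176). EXOSC1, also of the cap, did not pass, with a log2 change of -0.19 ± 0.10 (adjusted p = 0.198). Its signals were 10.36, 10.24 and 10.41 in shCypB cells and 10.57, 10.61 and 10.39 in shCON cells, which overlap.

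No gene of the 6 ring subunits passed, with log2 changes from -0.64 to 0.31. EXOSC8 had the largest standard error of the 38. It had log2 signals of 8.09, 7.53 and 8.48 in shCypB cells and 8.97, 8.63 and 8.43 in shCON cells, a change of -0.64 ± 0.25 (adjusted p = 0.0779). The groups overlapped through shCypB replicate 3, and without that array the change was -0.87 (adjusted p = 0.0314). EXOSC9 moved the other way and lay at the threshold: 9.46, 9.51 and 9.34 in shCypB cells and 9.01, 9.12 and 9.25 in shCON cells, a change of 0.31 ± 0.10 (adjusted p = 0.0503). Its other probe, nearly as bright, changed by 0.19 ± 0.09 (adjusted p = 0.124). EXOSC9 passed under 8 of 16 alternative settings and EXOSC8 under 6. Without shCON replicate 3 the change of EXOSC9 was 0.37 (adjusted p = 0.0415). For EXOSC4, EXOSC5, EXOSC6 and EXOSC7 the changes were -0.36, -0.11, -0.15 and -0.22.

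The nucleases attached to the ring did not pass either. DIS3, the main 3′ to 5′ exonuclease and endonuclease of the nuclear exosome, changed by 0.35 ± 0.13 (adjusted p = 0.0643). It was dim, at 5.87, 6.15 and 6.04 in shCypB cells and 5.48, 5.70 and 5.83 in shCON cells. The values did not overlap, and without shCON replicate 3 its change was 0.43 (adjusted p = 0.0461). DIS3L, its cytoplasmic relative, changed by -0.25 ± 0.11 (adjusted p = 0.121; -0.34 and adjusted p = 0.0457 without shCON replicate 1). EXOSC10, the nuclease of the nucleolar exosome, changed by -0.05, -0.16 and -0.11 at its 3 probes, none of which passed.

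Of 11 Integrator genes measured, 3 rose, 2 fell and 6 did not pass, with a median log2 change of 0.09. The 45.5% called lay near the 43.8% of all tested genes (23.1% higher and 20.8% lower). INTS2, a subunit of the scaffold, changed most. Its log2 signal was 6.60, 6.34 and 6.58 in shCypB cells and 5.14, 5.89 and 5.46 in shCON cells, where the SD was 0.38. All shCypB values lay above all shCON values, and the rise was 1.01 ± 0.19 on the log2 scale (2.02-fold higher, adjusted p = 0.00482). The probe was detected on 2 of 3 shCON arrays, so the size rests on values close to background, and it was 0.52 in the authors' processed values (adjusted p = 0.000632).

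INTS10, which belongs to a module with INTS13 and INTS14, fell. It had log2 signals of 8.66, 8.69 and 8.71 in shCypB cells and 9.19, 9.20 and 9.23 in shCON cells. No other gene of the 38 had so small a spread within groups, and the fall of 0.52 ± 0.09 (1.43-fold lower, adjusted p = 0.00278) was far outside it. INTS12, a small subunit with a PHD finger, was at 9.35, 9.45 and 9.46 in shCypB cells and 9.18, 9.07 and 8.91 in shCON cells, a rise of 0.36 ± 0.11 (adjusted p = 0.0299). INTS8, which links Integrator to the phosphatase PP2A, was at 6.91, 6.79 and 6.83 in shCypB cells and 6.42, 6.65 and 6.54 in shCON cells, a rise of 0.31 ± 0.10 (adjusted p = 0.0462). These 2 rises were small and rested on few arrays: with 1 array left out, INTS12 passed in 1 of 6 fits (without shCON replicate 1) and INTS8 in 1 of 6 (without shCON replicate 2). Where they failed, adjusted p was 0.0557 to 0.0922 for INTS12 and 0.0801 to 0.134 for INTS8.

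INTS6, also of the phosphatase module, gave different answers at its 2 probes. The brighter probe had log2 signals of 7.67, 7.60 and 7.60 in shCypB cells and 7.999, 7.93 and 7.91 in shCON cells, a fall of 0.33 ± 0.09 (adjusted p = 0.0221). The dimmer probe read 5.26, 5.35 and 5.46 in shCypB cells and 4.69, 5.22 and 5.30 in shCON cells, a change of 0.28 ± 0.17 that did not pass (adjusted p = 0.229). The mean of both probes changed by -0.02 (adjusted p = 0.872). The call of the brighter probe was also lost without shCypB replicate 2, shCypB replicate 3 or shCON replicate 1 (adjusted p = 0.0649 to 0.0726).

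For the scaffold genes INTS1 and INTS7 the changes were 0.03 ± 0.10 and 0.15 ± 0.18, and for INTS5, another subunit, 0.20 ± 0.09 (adjusted p = 0.116). The cleavage module genes INTS4 and INTS9, whose products hold the endonuclease INTS11, changed by 0.09 ± 0.11 and 0.01 ± 0.10. INTS4 was read by 3 probes. The brightest was at 7.92, 8.09 and 8.01 in shCypB cells and 7.9998, 7.76 and 7.9988 in shCON cells, which overlap, and the 2 dim ones changed by -0.21 and 0.14. None of them passed. INTS3, which also forms a complex with single-stranded DNA-binding proteins in DNA repair, changed by 0.02 ± 0.11.

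**Figure D2:**
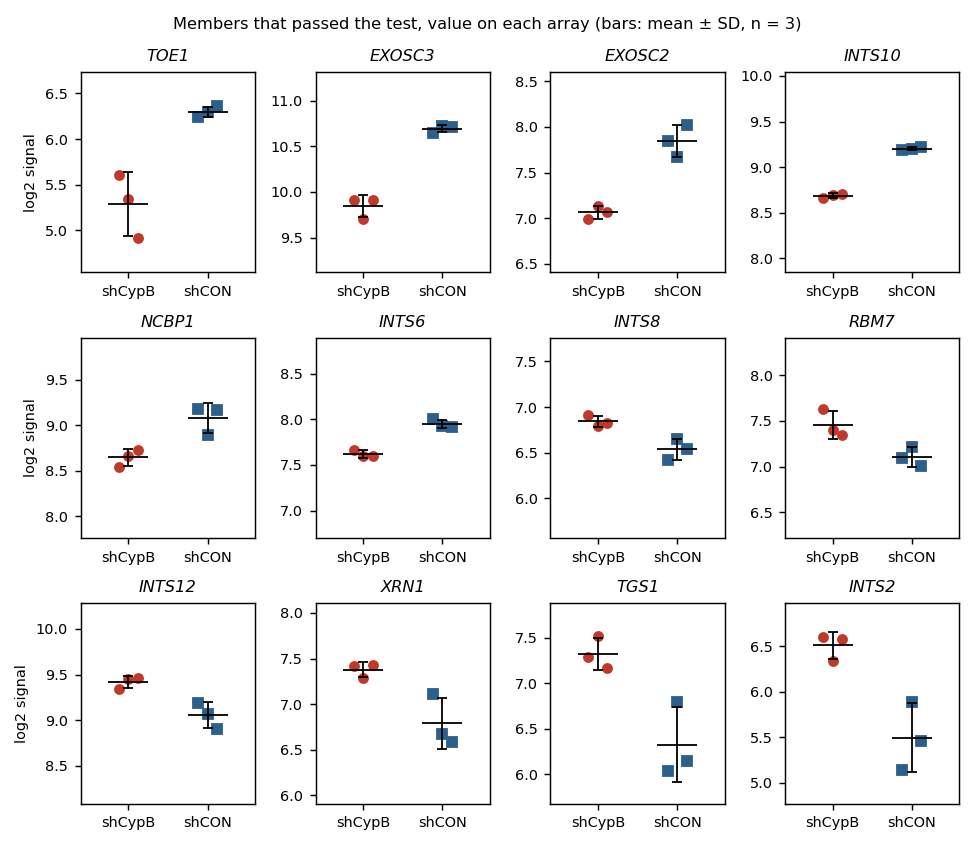
Log2 signal on each array for the 12 genes that passed the test, shCypB arrays (red circles) left of shCON arrays (blue squares), with bars for mean ± SD of 3 arrays; every panel spans 2.2 log2 units. The groups do not overlap in all 12, which were picked by the test on these same values. Nor did they overlap in 7 of the genes that did not pass, and in 56.8% of all tested genes. The shCON values of INTS2 and TGS1 and the shCypB values of TOE1 are the most spread.

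The helicase MTREX and its partners were nearly level between groups. Of 6 genes, 1 rose and 5 did not pass (16.7% called, against 43.8% of all tested genes), with changes from -0.13 to 0.35. RBM7, the RNA-binding subunit of NEXT, was the one that rose. It was at 7.63, 7.40 and 7.35 in shCypB cells and 7.10, 7.22 and 7.003 in shCON cells, a change of 0.35 ± 0.11 (1.28-fold higher, adjusted p = 0.0454). With 1 array left out it passed in 1 of 6 fits, the one without shCON replicate 2, and adjusted p was 0.0622 to 0.14 in the others. MTREX itself changed by 0.11 ± 0.13, the NEXT scaffold gene ZCCHC8 by -0.13 ± 0.10 and the TRAMP zinc-knuckle gene ZCCHC7 by -0.04 ± 0.10. TENT4A and TENT4B, which encode poly(A) polymerases that tag RNA for decay, changed by 0.14 ± 0.12 and -0.13 ± 0.13.

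Of the 5 genes acting on the RNA cap, TGS1 rose, NCBP1 fell and 3 did not pass. With 2 of 5 called, the group lay near the 43.8% called of all tested genes (23.1% higher and 20.8% lower). TGS1 encodes the enzyme that converts the cap of small nuclear and some small nucleolar RNAs, and that of telomerase RNA, to the trimethylated form. Its log2 signal was 7.28, 7.51 and 7.16 in shCypB cells and 6.04, 6.80 and 6.14 in shCON cells, where replicate 2 stood above the other shCON arrays. The groups did not overlap, and the rise was 0.99 ± 0.21 (1.99-fold higher, adjusted p = 0.00765). The other TGS1 probe was detected on 0 of 3 shCON arrays, so it was tested only through the shCypB arrays. Its rise, at least 1.26-fold (adjusted p = 0.00597), was in a direction partly fixed by the detection filter. With the authors' processed values the change of the brighter probe was 0.66 (adjusted p = 0.000275).

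NCBP1, the large subunit of the nuclear cap-binding complex, was at 8.54, 8.67 and 8.73 in shCypB cells and 9.18, 8.89 and 9.17 in shCON cells. It fell by 0.43 ± 0.12 (1.35-fold lower, adjusted p = 0.0218), with shCON replicate 2 nearest to the shCypB values. The call was lost without shCypB replicate 1 or 2 or without shCON replicate 1 or 3 (adjusted p = 0.0537 to 0.0776). NCBP2, the small subunit that holds the cap itself, had 3 probes. The brightest was at 9.75, 9.80 and 9.71 in shCypB cells and 9.62, 9.48 and 9.62 in shCON cells, a change of 0.18 ± 0.09 (adjusted p = 0.166). The second changed by 0.29 ± 0.10 (adjusted p = 0.0641) and the dimmest by -0.25 ± 0.20 (adjusted p = 0.370). SRRT, also called ARS2, links the cap-binding complex to NEXT and to export and changed by -0.10 ± 0.11. PHAX, the adaptor for export of small nuclear RNAs, was at 8.92, 8.85 and 9.01 in shCypB cells and 8.93, 9.04 and 8.79 in shCON cells. Its 3 probes changed by 0.00, 0.04 and -0.10, and none passed.

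**Figure D3:**
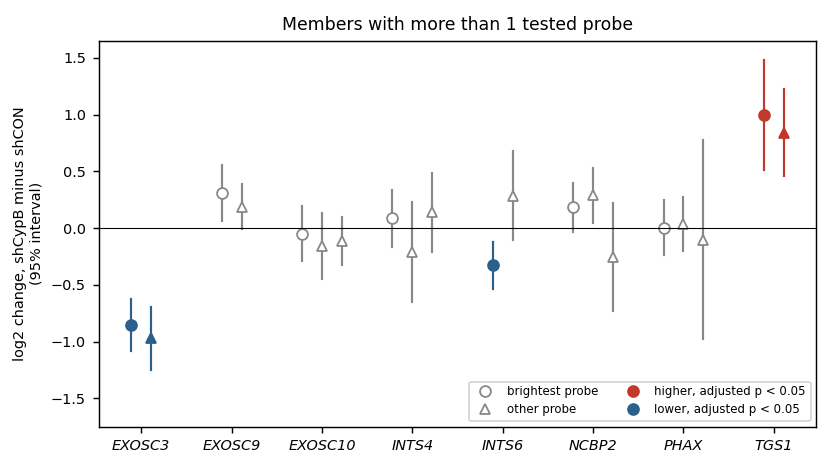
Log2 change with 95% intervals at each tested probe of the 8 genes that had more than 1; circles are the brightest probe and triangles the others, filled where adjusted p was below 0.05. EXOSC3 gave the same call at both probes, each detected on all 6 arrays, and INTS6 did not. Both TGS1 probes were called higher, but the dimmer one was tested only through the shCypB arrays, so the filter partly fixed its direction.

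Of the 4 exonucleases that act outside these complexes, TOE1 fell, XRN1 rose, and PARN and XRN2 did not pass. These 2 calls among 4 genes lay near the 43.8% called of all tested genes (23.1% higher and 20.8% lower). TOE1 encodes a deadenylase of Cajal bodies that trims the tails of small nuclear RNAs and, with PARN, of telomerase RNA. Its log2 signal was 5.60, 5.34 and 4.91 in shCypB cells and 6.25, 6.30 and 6.36 in shCON cells. The shCON values were close together and all above the shCypB values, and the fall was 1.01 ± 0.17 (2.02-fold lower, adjusted p = 0.00306). The probe was dim, being detected on 2 of 3 shCypB arrays, and without background correction the fall was 0.54 (adjusted p = 0.000696). PARN changed by -0.25 ± 0.13 (adjusted p = 0.181), with 7.54, 7.59 and 7.26 in shCypB cells and 7.54, 7.86 and 7.75 in shCON cells, which overlap.

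XRN1, the main cytoplasmic 5′ to 3′ exonuclease, was at 7.42, 7.29 and 7.43 in shCypB cells and 7.11, 6.68 and 6.58 in shCON cells. It rose by 0.59 ± 0.15 (1.51-fold higher, adjusted p = 0.0168), and shCON replicate 1 was the shCON array nearest to the shCypB values. The call was lost without shCypB replicate 1, shCypB replicate 3 or shCON replicate 2 (adjusted p = 0.0524 to 0.0579). XRN2, the nuclear enzyme that follows the polymerase after cleavage, changed by 0.09 ± 0.13 (adjusted p = 0.614).

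TOE1 starts 50 bases from a start of MUTYH, a base excision repair gene on the other strand, so that both are read outward from one stretch of DNA. Both fell. The brightest MUTYH probe was at 7.26, 7.29 and 7.33 in shCypB cells and 8.06, 8.27 and 8.12 in shCON cells, a fall of 0.85 ± 0.10 (adjusted p = 0.000553). A second probe, detected on 0 shCypB arrays, was tested only through the shCON arrays, so its direction was partly fixed by the detection filter. It fell at least 1.36-fold (adjusted p = 0.00747). Another probe, near background, changed by -0.08 (adjusted p = 0.629). MUTYH was singled out after its values were seen. Among 31 of the 40 genes matched to the RefSeq promoter table (GRCh38.p14), 13 had a start of a gene on the other strand within 1000 bases upstream. In 8 of these pairs both genes were tested, and TOE1 with MUTYH was the 1 pair in which both passed. EXOSC7, by contrast, did not pass (-0.22) while ZDHHC3, 70 bases away, rose by 0.58 (adjusted p = 0.0218).

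The promoters of TOE1 and INTS2 are shown because they belong to the genes with the greatest fall and the greatest rise. Each is 300 bases of the gene's own strand, 250 before and 50 after the first transcribed base, from RefSeq on GRCh38.p14: TOE1 at chr1:45339920-45340219 on the plus strand and INTS2 at chr17:61927933-61928232 on the minus strand. Capitals mark a match to a searched motif.
TOE1: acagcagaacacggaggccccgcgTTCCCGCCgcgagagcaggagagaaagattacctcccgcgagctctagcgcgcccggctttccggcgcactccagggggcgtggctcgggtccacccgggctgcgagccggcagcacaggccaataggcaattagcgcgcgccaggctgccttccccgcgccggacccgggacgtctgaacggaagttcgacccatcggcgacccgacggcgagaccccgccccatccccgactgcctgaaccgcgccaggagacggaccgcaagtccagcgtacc
INTS2: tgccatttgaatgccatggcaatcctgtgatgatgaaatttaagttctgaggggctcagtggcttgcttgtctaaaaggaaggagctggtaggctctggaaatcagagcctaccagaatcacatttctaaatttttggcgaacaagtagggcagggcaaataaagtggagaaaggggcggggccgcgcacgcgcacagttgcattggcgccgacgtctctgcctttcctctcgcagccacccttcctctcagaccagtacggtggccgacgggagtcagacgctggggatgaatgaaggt
The search covered both strands for an ETS motif (CCGGAAG), an E-box (CACGTG), 2 forms of an E2F motif (TTCCCGCC and TTTGGCGC), an NRF1 motif and a YY1 motif. TOE1 had 1 match, to the E2F motif, starting at position -226 from its first transcribed base, and INTS2 had 0. An E2F match occurred in 4 of the 31 promoters and in 3.81% of 27305 promoters in the table, an ETS match in 7 of 31 and 10.7% of all, an E-box in 3 of 31 and 7.43%, a YY1 match in 1 of 31 and 0.916%, and an NRF1 match in 0 of 31 and 1.36%. Among the 8 promoters of genes that passed, 1 held an E2F match and 1 an E-box. In base composition the TOE1 promoter was 70.7% and the INTS2 promoter 53.3% G and C.

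Other genes of the same pathways, listed by function, were read from the same fit. Of 89 listed, 79 were tested, of which 16 rose, 18 fell and 45 did not pass. That is 43.0% called, against 43.8% of all tested genes (23.1% higher and 20.8% lower). The median log2 change was -0.02. NABP2 and NABP1 encode single-stranded DNA-binding proteins that pair with INTS3 in the SOSS complex of DNA repair. NABP2 was at 7.63, 7.31 and 7.21 in shCypB cells and 9.11, 9.17 and 8.87 in shCON cells, a fall of 1.66 ± 0.14 (adjusted p = 0.000195). NABP1 was at 7.88, 8.08 and 7.78 in shCypB cells and 9.25, 9.53 and 9.63 in shCON cells, a fall of 1.55 ± 0.14 (adjusted p = 0.000205). NABP2 was 3.17-fold and NABP1 2.94-fold lower, while the INTS3 change was 0.02. The other 4 tested Integrator partners did not pass, with INTS11, the endonuclease, at -0.13 ± 0.11 and INTS13 at 0.54 ± 0.23 (adjusted p = 0.0997).

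The cytoplasmic SKI and nuclear PAXT groups, which feed the exosome, were listed together with DIS3L2. Of the 6 genes tested in this list, 1 rose and 1 fell. That is 33.3% called, against 43.8% of all tested genes. SKIC2, the SKI helicase, was at 7.93, 8.004 and 7.78 in shCypB cells and 8.88, 8.79 and 8.79 in shCON cells, a fall of 0.92 ± 0.10 (adjusted p = 0.000471). The SKI scaffold gene SKIC3 rose by 0.36 ± 0.11 (adjusted p = 0.0305). Among deadenylation genes 5 of 12 rose and 1 fell. These 6 calls among 12 genes lay near the 43.8% called of all tested genes (23.1% higher and 20.8% lower). The lean toward rises was not tested. CNOT11, a subunit of the CCR4-NOT deadenylase, was at 8.33, 8.64 and 8.59 in shCypB cells and 10.24, 10.14 and 10.25 in shCON cells, a fall of 1.69 ± 0.11 (3.22-fold lower, adjusted p = 8e-05). CNOT8, a catalytic subunit of the same complex, rose by 0.97 ± 0.12 (adjusted p = 0.000715), CNOT2 by 0.57 ± 0.10 and CNOT4, a ubiquitin ligase, by 0.50 ± 0.13.

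Decapping genes were lower in 4 of 10 cases and higher in 1. These 5 calls among 10 genes lay near the 43.8% called of all tested genes (23.1% higher and 20.8% lower). The lean toward falls was not tested. DXO, which removes faulty caps, fell by 0.93 ± 0.12 (adjusted p = 0.000955), EDC3 by 0.52 ± 0.12 and the decapping enzyme gene DCP2 by 0.41 ± 0.10, whereas LSM1, of the ring that binds shortened tails, rose by 0.49 ± 0.10. Among 13 genes acting on small RNA ends, 4 rose and 2 fell (46.2% called, against 43.8% of all tested genes). The exonuclease gene ISG20 rose by 0.77 ± 0.10 (adjusted p = 0.00117), USB1, which trims U6 small nuclear RNA, by 0.64 ± 0.10, and the uridylyl transferase genes TUT1 and TUT4 by 0.59 ± 0.14 and 0.58 ± 0.14.

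Genes for small nuclear RNA transcription and assembly rose in 2 of 16 cases and fell in 4 (37.5% called, against 43.8% of all genes). GEMIN6, of the SMN complex that loads Sm proteins, fell by 0.96 ± 0.09 (adjusted p = 0.000224), GEMIN4 by 0.66 ± 0.09 and ICE2, of the little elongation complex, by 0.59 ± 0.09. SNUPN, the import adaptor that recognises the trimethylated cap made by TGS1, rose by 0.79 ± 0.09 (adjusted p = 0.000558), with 9.37, 9.28 and 9.40 in shCypB cells and 8.60, 8.55 and 8.53 in shCON cells. In cleavage and polyadenylation 3 of 16 genes rose and 4 fell (43.8% called, the same share as of all tested genes). The scaffold gene SYMPK fell by 1.02 ± 0.18 (adjusted p = 0.00344; detected on 1 of 3 shCypB arrays), CSTF3 by 0.79 ± 0.12, the export factor gene ALYREF by 0.76 ± 0.17 and CPSF4 by 0.57 ± 0.10.

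**Figure D4:**
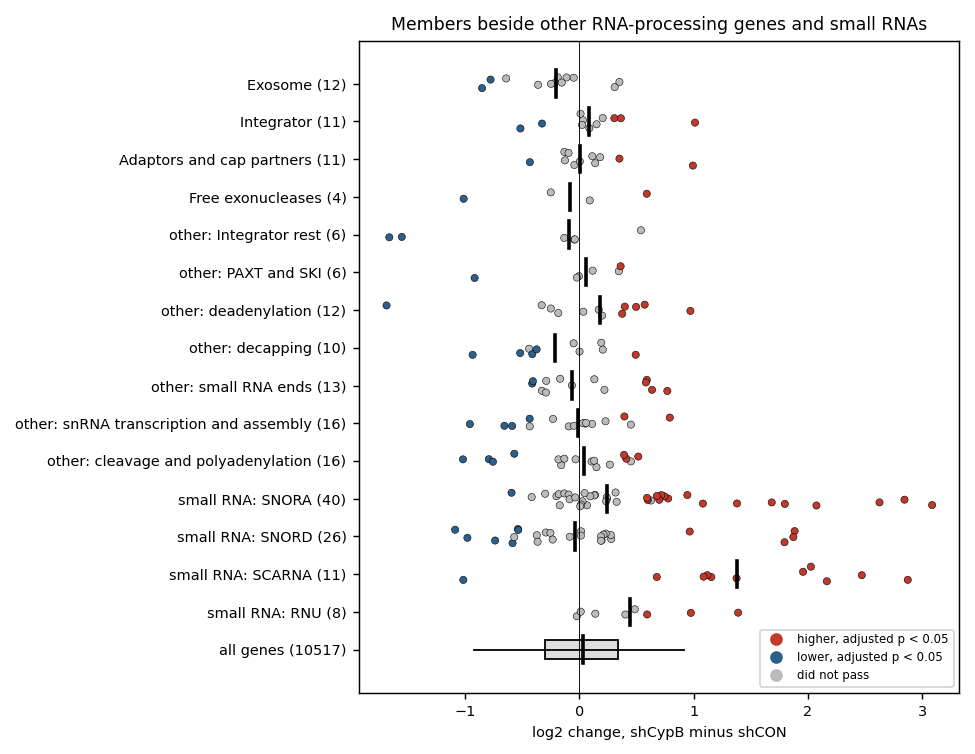
Log2 change of single genes (points) in the groups described and in small RNAs, with the number tested in brackets, black bars at the medians, and a box of the middle 50% with whiskers to the 5th and 95th percentiles for all genes. The medians of the exosome, Integrator and adaptor genes are -0.20, 0.09 and 0.00, with INTS2, TGS1, EXOSC3 and EXOSC2 apart from them. Points of small RNAs undetected on all shCON arrays, 6 of the 11 SCARNA among them, show fitted values where only a bound is known. The same holds for 1 SNORD undetected on all shCypB arrays.

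The RNAs that these enzymes are known to trim, end or degrade were also on the array. Of 323 named small RNAs, 93 were tested, of which 35 were higher, 8 lower and 50 did not pass (46.2% called, against 43.8% of all tested genes). These counts are partly fixed by the detection filter: 12 of the 93 were undetected on all shCON arrays, so they were tested only through the shCypB arrays, and 11 of these 12 were among the 35. Likewise, 1 of the 8 lower RNAs was undetected on all shCypB arrays, so it was tested only through the shCON arrays. Of the 46 RNAs detected on all 6 arrays, 18 were higher, 7 lower and 21 did not pass. Over all tested genes, which include some not detected on every array, 23.1% were higher and 20.8% lower. Of 24 small Cajal body RNAs, 11 were tested, and 6 of those were undetected on all shCON arrays. Among the 4 detected on all 6 arrays, 3 were higher and 1, SCARNA10, was lower by 1.02 on the log2 scale. Of box H/ACA small nucleolar RNAs 18 were detected on all 6 arrays, of which 8 were higher and 1 lower, and of box C/D small nucleolar RNAs 13, of which 3 were higher and 5 lower. The greatest changes were those of SNORA62 (3.09 ± 0.24), SCARNA13 (at least 5.24-fold higher), SNORA12 (2.85 ± 0.16) and SNORA63 (2.63 ± 0.14), all from shCON signals at or near background, so that their sizes depend on the background correction. Near-identical copies may share signal, and whether a probe reads the mature RNA, a precursor or a host transcript was not tested. Total RNA had been isolated with a kit that keeps small RNA, in both groups.

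TERC, the telomerase RNA, was singled out after its values were seen because TOE1, PARN and TGS1 act on it. It was at 7.97, 7.65 and 7.92 in shCypB cells and 5.82, 5.45 and 6.01 in shCON cells, detected on all 6 arrays, a rise of 2.09 ± 0.16 (adjusted p = 0.000136). U3 RNA (SNORD3A) rose by 1.80 ± 0.11 (adjusted p = 5.57e-05). Rises of about this size were not particular to TERC and U3. Among the 46 RNAs detected on all 6 arrays, of which 18 were higher and 7 lower, SCARNA18 rose by 2.47 ± 0.12 and RN7SK by 1.71 ± 0.16. Of 8 tested genes with RNU symbols, 3 rose and 5 did not pass (37.5% called, against 43.8% of all tested genes). Among the 4 of them detected on all 6 arrays, 2 were higher and 2 did not pass. RNU1-1, a U1 small nuclear RNA gene of the kind that Integrator ends, was at 8.44, 8.67 and 8.46 in shCypB cells and 8.05, 7.96 and 7.79 in shCON cells, a rise of 0.59 ± 0.11 (adjusted p = 0.00561). RNU11, undetected on all shCON arrays, did not pass (adjusted p = 0.0756), and RNU6-1 and RNU4ATAC changed by -0.02 and 0.01. A link between these RNAs and the enzymes was not tested.

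**Figure D5:**
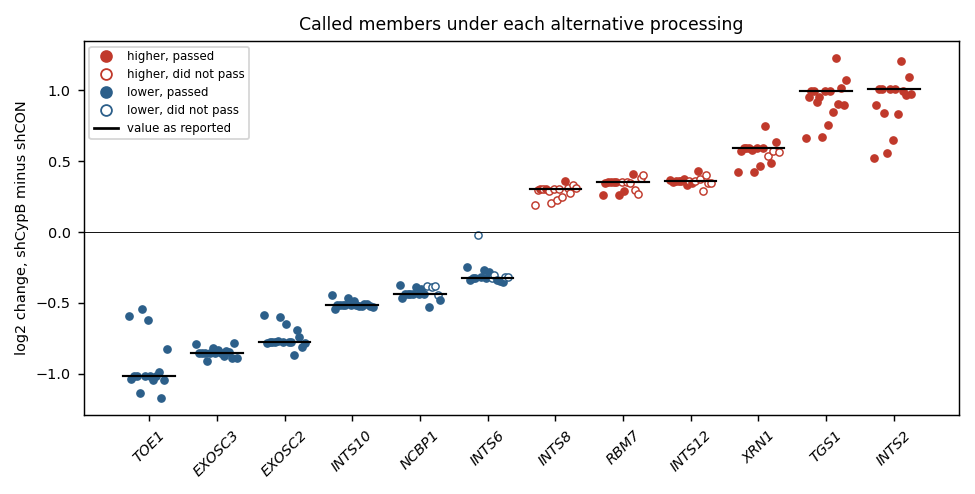
Log2 change of the 12 genes that passed, under up to 16 alternative ways of processing or with 1 array left out (points), filled where the gene still passed; black lines mark the values reported. TOE1, EXOSC3, EXOSC2, INTS10, TGS1 and INTS2 passed under every alternative run, INTS8 lost its call under most, and none of the 12 changed sign.

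Of the 12 calls, 6 passed under every alternative that could be run: EXOSC2, EXOSC3, INTS2, INTS10, TGS1 and TOE1. These include 5 of the 6 changes of at least 1.5-fold. The other 6 calls were lost under at least 1. Of the 26 genes that did not pass, 21 did not pass under any alternative.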

How the data were processed

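Total RNA of 3 shCypB and 3 shCON samples was biotin labelled and hybridised to 1-colour Illumina bead arrays, per the labels' protocols. The authors deposited, for 47231 probes, a bead signal intensity on a linear scale that was not normalized, per the file headers, with a detection p-value per probe and array in steps of 1 in 770. A second deposited table holds processed intensity values, made by a method not given in the sources used here; its columns ranked probes like the same arrays' raw signals (rho 0.999 or higher). Partek is named, without a version, in the submitters' processing notes.

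Signals were background corrected (normexp from detection p-values, offset 16), quantile normalized and log2 transformed with limma 3.58.1 in R 4.3.3. A gene was read from its brightest tested probe. Groups were compared with lmFit and eBayes (4 residual and 3.51 prior degrees of freedom) with Benjamini-Hochberg adjustment over 17608 probes, and every adjusted p comes from this fit or, where an alternative is named, from that alternative's own limma fit. Errors are standard errors of the log2 change. Where no array of a group detected a probe, its fold is a bound, set against the lowest detected signal. The number of arrays limits the precision: 3 against 3 cannot go below an exact two-sided permutation p of 0.1. Probes were named by the platform annotation, updated through Entrez identifiers to RefSeq.

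All 40 genes could be named, and of each other list the 4 called genes with the greatest change. INTS11, INTS13, DIS3L2, ZDHHC3, SCARNA10, SCARNA18, SNORD3A, RN7SK, RNU1-1, RNU11, RNU6-1, RNU4ATAC, MUTYH and TERC were named outside this rule, after their values were seen. The genes and lists were chosen with earlier results of these data known.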

Additional observations from a re-analysis of the deposited data

How the results depend on the processing

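Counts of called probes and of other pathway genes stayed within 1.5 times the reported counts under every alternative run. Exosome genes called numbered 4 in place of 2 with a normexp offset of 50, without background correction, with detection p below 0.01 on all arrays, with the authors' processed values and with all probes of a gene averaged, and 6 with an intensity trend and robust prior. EXOSC9 was among the added calls in each of these, with EXOSC8 in all but the mean of probes, where DIS3 was added; the trend also added EXOSC4 and DIS3L. Without a detection filter 3 members were higher in place of 6 and 3 Integrator genes were called in place of 5. With detection p below 0.01 on all arrays 1 free exonuclease gene was called in place of 2, since TOE1 was no longer tested, and 15 small RNAs in place of 43, since dim RNAs were no longer tested. With the replicate number as a block, 3 members were higher and 2 Integrator genes were called. Same-numbered arrays did not deviate together (correlations -0.10, -0.11 and 0.01), so the numbers were not taken as pairs.

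With 1 array left out, 2 to 5 members were higher and 4 to 6 lower, and 2 to 4 exosome, 2 to 4 Integrator, 1 to 3 adaptor and 1 to 2 free exonuclease genes were called; 25 to 32 other pathway genes and 38 to 43 small RNAs were called, and PPIB kept its call. Median log2 changes were -0.23 to -0.17 for exosome, 0.04 to 0.11 for Integrator and -0.04 to 0.06 for adaptor genes. The cause of these moves was not tested. Among values of single called members, 151 kept their call, 39 did not pass and 0 reversed. No slide is named, so none was entered as a block.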
